A study of Caenorhabditis elegans with 2 samples.

Results

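The 40 genes described here act in the development of the vulva and uterus of Caenorhabditis elegans: the ligands, receptors and kinases of vulval induction, the Notch and Wnt pathways of the vulval precursor cells, and genes that mark or set vulval and uterine cell fates. They were taken from a list of 40 names without homeobox genes, and all 40 matched 1 protein-coding gene each among 19973 on the nuclear chromosomes. The data show where GFP-tagged LIN-11, a transcription factor with LIM domains and a homeodomain, was recovered on chromatin. The samples were 2 biological replicates of whole late embryos, of mixed sex and labelled 4.25 hours, counted from a point that the labels do not name. Every sample came from strain OP62, which carries the unc-119(ed3) mutation and the integrated transgene wgIs62 for LIN-11 with GFP and FLAG at its C-terminus. All samples were bleach-synchronised and immunoprecipitated with an antibody against GFP, and no condition was compared. The sources used here name neither the promoter of the transgene nor its copy number, and each library averages over all cells of the embryo.

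The vulva is a classical model of cell signalling. The anchor cell of the gonad secretes LIN-3, an EGF-like ligand, which acts through the receptor LET-23 and the Ras to MAP kinase cascade in the nearest precursor cell, while DSL ligands on that cell activate the Notch receptor LIN-12 in its neighbours and Wnt ligands keep the precursors competent and set their polarity. LIN-11 itself is required for the divisions of secondary vulval cells and for uterine cell fates. These events take place in the larva, after the stage sampled here, so the regions described are those at which the tagged protein was found in embryos.

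Each gene had a window of its body and 5 kb upstream of its start, and a region belonged to a gene when its summit, the position of highest signal, lay in that window. The windows ran from 5.86 to 41.2 kb, with a median of 12.1 kb, against 7.02 kb for the other protein-coding genes. The authors deposited 560 reproducible regions, 539 of them on nuclear chromosomes, and 3 longer lists that also hold background. These are the pooled list of 20692 regions from both replicates together, the list of replicate 1 with 21441 and that of replicate 2 with 18735. Regions were ranked by the authors' signal value within each list, from 1 for the strongest, with mitochondrial regions included, and signal is not comparable between lists. Read depth is unknown from these lists.

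Of the 40 genes, 3 had a reproducible region in their window: him-4, egl-17 and smp-1 (7.50%, exact 95% interval 1.57 to 20.4). Among the 19933 other protein-coding genes the share was 4.69%, and among those with a window length within 10% of each gene's it averaged 6.36%. So the count lay near that of other genes of similar length. The regions of him-4 and egl-17 lay at tRNA genes within introns, and of all nuclear reproducible regions 45.6% lay within 200 bp of a small RNA gene. Without summits within 200 bp of a small RNA gene, 1 of 40 genes had a region (2.50%, 0.0633 to 13.2), against 2.90% of the other genes and a mean of 4.09% at similar length. Intervals cover counting error over genes only, and no test was made of the list.

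him-4 encodes hemicentin, an extracellular matrix protein that joins the gonad, the uterine seam and other tissues to their neighbours. Its region (ce11, chromosome X, 9743434 to 9743830) ranked 36 in the pooled list with a signal of 560. It lay 26131 bp downstream of the first start site, in an intron that holds F15G9.t1 and F15G9.t2, a pair of tRNA-Ala genes. In replicate 1 it was 1 region at rank 33 with a summit at 9743685, between both tRNA genes. In replicate 2 it was 2 regions, at rank 45 with a summit at 9743629 inside F15G9.t1 and at rank 214 with a summit at 9743829, beyond F15G9.t2. Both libraries therefore placed it among their strongest regions, but drew it differently. The nearest protein-coding start was that of F15G9.5, which lies within him-4, 5808 bp away.

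egl-17 encodes an FGF-like growth factor and is a standard reporter of vulval cell fate. Its region (chromosome X, 489771 to 490086) ranked 79 in the pooled list, with a signal of 419, 93 in replicate 1 and 59 in replicate 2. The summit lay 154 bp downstream of an egl-17 start, in an intron and inside the tRNA-Asp gene F38G1.t2, which is on the opposite strand. A tRNA-Thr gene, F38G1.t1, lies in the same window 5′ of egl-17. It had no region in the pooled list or in replicate 1, and in replicate 2 the region near it ranked 15853. Of the 4 tRNA genes in the 40 windows, 3 were thus at a reproducible region. The 3 snoRNA genes, in the windows of fos-1, lin-45 and pop-1, had no pooled-list summit within 200 bp. Nor had the 1 microRNA gene, cel-mir-67 in the window of zmp-1. In replicate 2 the snoRNA gene of fos-1 had 1 such summit.

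The sequences of these 4 tRNA genes are shown because they hold both strongest regions of the 40 genes and the 1 tRNA gene that lacked one. Each is given 5′ to 3′ on the strand of the tRNA gene, from RefSeq's WBcel235 sequence, with the tRNA genes in capitals and 30 bases on either side.
F38G1.t2 in the egl-17 intron, chrX:489838-489969, minus strand: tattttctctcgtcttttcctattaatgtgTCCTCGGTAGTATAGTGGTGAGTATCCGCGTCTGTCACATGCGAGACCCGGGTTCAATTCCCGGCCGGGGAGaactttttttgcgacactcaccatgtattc
F38G1.t1 upstream of egl-17, chrX:487785-487916, plus strand: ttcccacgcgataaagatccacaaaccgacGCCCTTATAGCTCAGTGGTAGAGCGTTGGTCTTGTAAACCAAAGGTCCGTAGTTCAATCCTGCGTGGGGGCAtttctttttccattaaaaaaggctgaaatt
F15G9.t1 and F15G9.t2 in the him-4 intron, chrX:9743559-9743848, plus strand: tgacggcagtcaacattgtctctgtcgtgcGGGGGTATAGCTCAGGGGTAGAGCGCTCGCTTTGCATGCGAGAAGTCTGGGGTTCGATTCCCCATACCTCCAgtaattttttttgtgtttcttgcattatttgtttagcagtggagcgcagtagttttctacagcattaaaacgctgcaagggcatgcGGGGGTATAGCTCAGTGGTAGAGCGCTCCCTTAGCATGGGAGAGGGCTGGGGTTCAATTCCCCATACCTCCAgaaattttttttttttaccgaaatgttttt
Each tRNA gene is 72 bases long. The tRNA-Ala pair matches at 65 of 72 positions, whereas F38G1.t2 and F38G1.t1 match at 32. All 4 hold GTTCNA, the core of the internal B box that recruits RNA polymerase III factors, starting at base 52, as do 96.1% of the 612 nuclear tRNA genes on the gene's own strand. On either strand 16.2% of the 101-base windows around pooled-list summits hold it. Presence of this core therefore did not tell F38G1.t1 from the others. Identical copies of these genes number 21 for F38G1.t2, 9 for F38G1.t1, 8 for F15G9.t1 and 15 for F15G9.t2, each itself included. The sources used here do not say how reads shared between such copies were placed, and its part in these 2 regions was not tested.

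**Figure D1:**
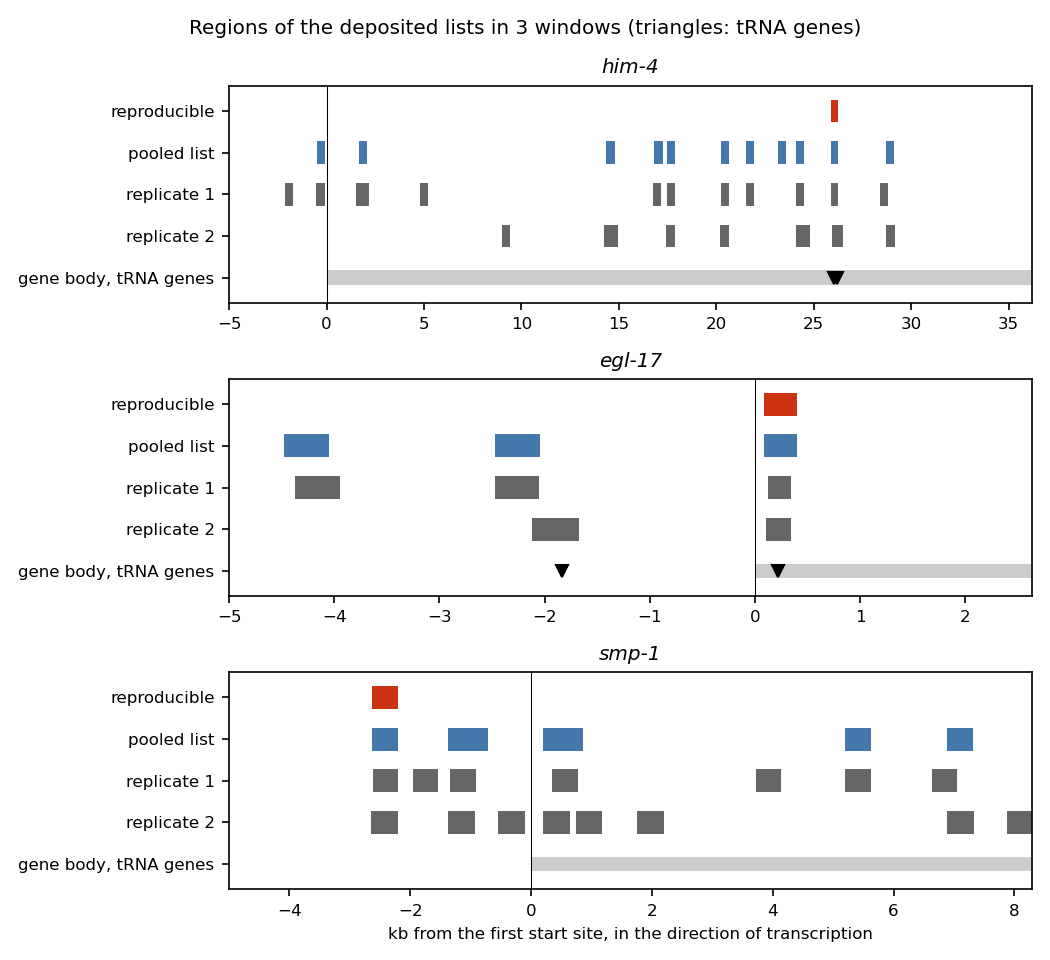
Regions of the 4 deposited lists along the windows of him-4, egl-17 and smp-1. The horizontal axis gives kb from the first start site in the direction of transcription, boxes are regions, grey bars the gene bodies and triangles tRNA genes. The reproducible regions of him-4 and egl-17 sit at tRNA genes, and that of smp-1 lies upstream with no small RNA gene nearby.

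The axon and cell guidance genes smp-1 and plx-1 encode a transmembrane semaphorin and its plexin receptor, which shape the vulval toroids. The smp-1 region (chromosome I, 14804824 to 14805253) ranked 510 in the pooled list with a signal of 125, 526 in replicate 1 and 994 in replicate 2. It lay 2423 bp upstream of the smp-1 start, which was the nearest protein-coding start, and no other annotated gene covered its summit. It was the only reproducible region of the 40 genes without a small RNA gene. It fell inside the 560 strongest regions of replicate 1 and outside those of replicate 2. A second smp-1 region (14806091 to 14806520), 1156 bp upstream, ranked 1149, with ranks of 2819 in replicate 1 and 1266 in replicate 2. In all smp-1 had 7 pooled-list regions, 6 of them listed in both replicates, and its regions per kb stood at percentile 94.0 among the 835 other genes of similar window length. These were not 7 separate sites. The regions at ranks 1149 and 10348 overlapped, as did those at ranks 6896 and 15088.

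plx-1 had no reproducible region, but its strongest one came next, at rank 882 (627 in replicate 1 and 3969 in replicate 2). That region (chromosome IV, 983854 to 984283, signal 95.8) lay in the 3′ UTR, 326 bp inside the end of the gene. An intronic region 2215 bp upstream of an internal start ranked 1152, with 3128 in replicate 1 and 1971 in replicate 2. plx-1 and him-4 each had 11 pooled-list regions, with 5 of each in both replicates. Per kb that was percentile 74.1 of 81 genes of similar length for plx-1, and percentile 40.7 of 27 for him-4. The strongest plx-1 region overlapped another, at rank 4510.

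Regions ranked 2000 or better in the pooled list, the reproducible ones included, lay in the windows of 16 of the 40 genes (40%, 24.9 to 56.7). The share was 14% of the other genes, with a mean of 22.3% at similar length. The 2 replicates did not give the same picture. In replicate 1 alone, 17 of 40 genes had a region ranked 2000 or better (42.5%, 27.0 to 59.1, against 14.1% of other genes and 23.1% at similar length), while in replicate 2 alone 7 of 40 did (17.5%, 7.34 to 32.8, against 14% and 21.5%). Those of replicate 2 were cam-1, egl-13, egl-17, him-4, plx-1, pop-1 and smp-1. Of the 21 pooled-list regions behind the 16 genes, 16 ranked better in replicate 1 than in replicate 2, against 55.5% of all 1979 nuclear regions ranked 2000 or better. The share was thus above that of other genes of similar length in replicate 1. In replicate 2 it lay near the shares of other genes, between the 14% of all and the 21.5% at similar length.

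**Figure D2:**
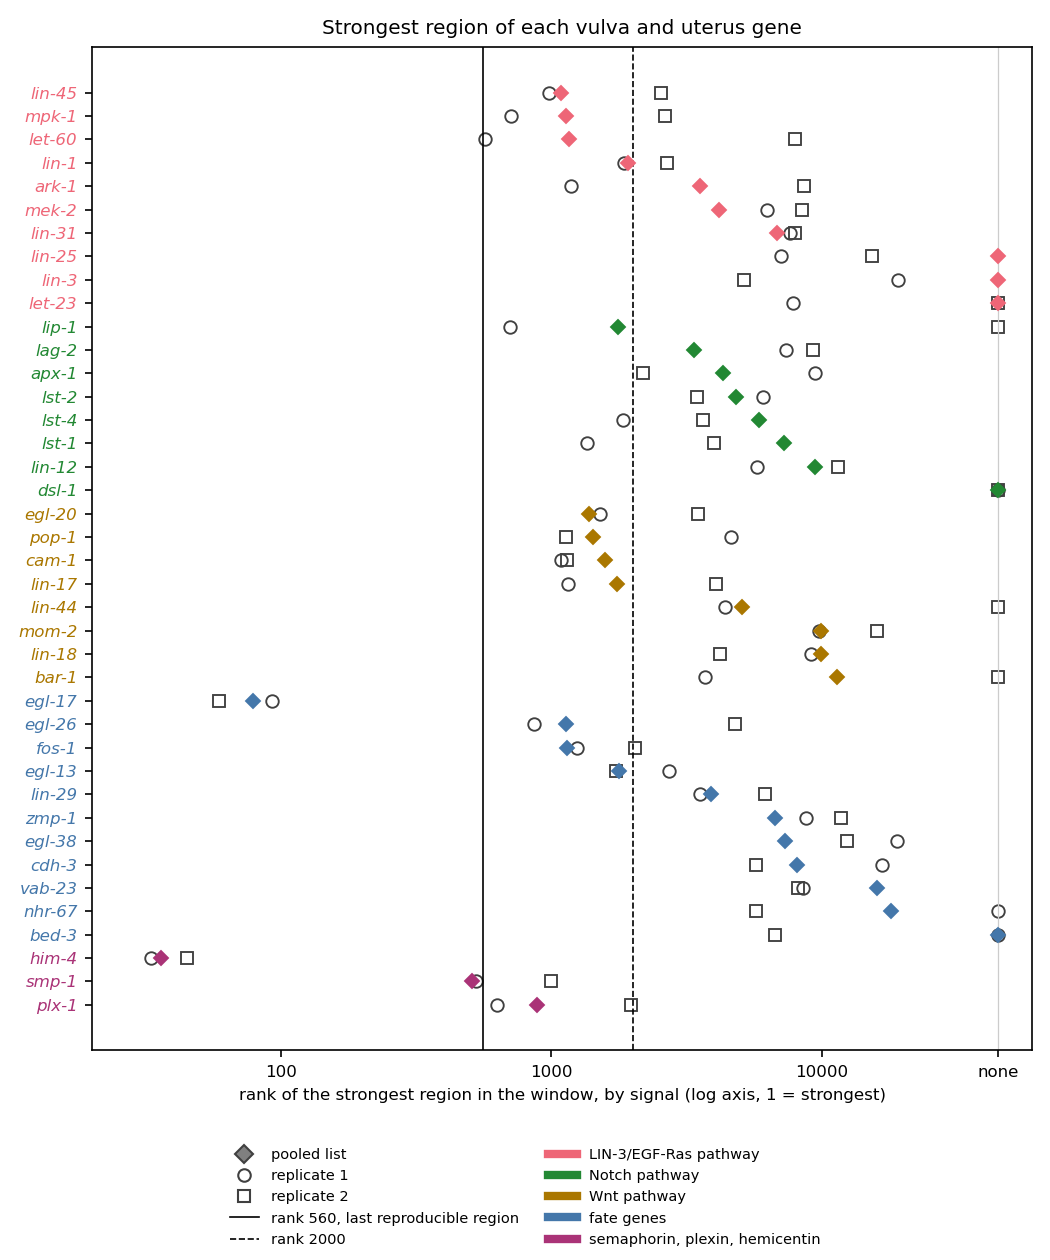
Rank of the strongest region in the window of each of the 40 genes, on a log axis, in the pooled list (diamonds), replicate 1 (circles) and replicate 2 (squares), grouped by pathway. The lines mark rank 560, the last of the reproducible regions, and rank 2000, and the column marked none holds genes with no region. In the pooled list him-4, egl-17 and smp-1 lie left of the first line, and the marks of the replicates lie close together for some genes (lin-31, 7651 and 7981) and apart for others (let-60, 567 and 7999).

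In the LIN-3 and Ras pathway, 4 of 10 genes had a pooled-list region ranked 2000 or better, and none had a reproducible one. The count was 5 of 10 in replicate 1 and 0 of 10 in replicate 2. Over all other genes the replicate shares were 14.1% and 14%. At window lengths similar to those of the whole gene list they averaged 23.1% and 21.5%. The pooled-list share was 14% over all other genes and averaged 22.3% at window lengths similar to those of the whole gene list. At lengths similar to single genes of this pathway it ran from 12.8% (let-60) to 32.6% (lin-1). The Raf kinase gene lin-45 had a region at rank 1086 (977 in replicate 1 and 2545 in replicate 2) over a coding exon, 79 bp downstream of an annotated start (chromosome IV, 6747486 to 6747915, signal 88.8). The ERK kinase gene mpk-1 had 2 intronic ones. The first ranked 1131, with 710 in replicate 1 and 2639 in replicate 2, and the second ranked 1577, with 876 and 14707. The Ras gene let-60 had one 1509 bp upstream, nearer to the start of ZK792.12 at 1196 bp, with rank 1167, 567 in replicate 1 and 7999 in replicate 2. lin-1, an ETS factor that MAP kinase regulates, had 11 pooled-list regions over a 29.4 kb window, the strongest in an intron at rank 1921 (1863 in replicate 1 and 4391 in replicate 2). All 5 of these regions ranked better in replicate 1.

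The other members of the pathway had weaker regions or none. lin-3, the EGF-like ligand, and let-23, its receptor, had 0 pooled-list regions in windows of 14.5 and 14.7 kb, and so did lin-25, a Mediator-linked factor needed for vulval induction, in 13.8 kb. Of other genes of similar length, 92.4%, 92.7% and 90.1% had at least 1. The single replicates listed some. lin-3 had 1 region in replicate 1, at rank 19161, and 2 in replicate 2, the better at 5160. let-23 had 2 in replicate 1, the better at 7829, and 0 in replicate 2, and lin-25 had 1 in each, at ranks 7089 and 15371. Of the rest, ark-1, a kinase that limits LET-23 signalling, had its strongest region at rank 3541, mek-2, the MAP kinase kinase, at 4189 and lin-31, a winged helix factor, at 6845. ark-1 had a region at rank 1182 in replicate 1 alone, against 8612 for its best in replicate 2.

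Sequences around 9 summits of the genes are shown so that the bases under the signal can be read. They come from the strongest region of each of 8 genes among those in introns or upstream that ranked 2000 or better away from small RNA genes, and from the plx-1 region at rank 4488 with the homeodomain core TAATTA, listed in both replicates. Each is 101 bases centred on the summit, on the plus strand of WBcel235 from RefSeq. Capitals mark matches on either strand to any of 6 words: the homeodomain core TAATTA with its variant TAATTG, the repeat GAGAGA, the GATA factor word TGATAA, the E-box CACGTG and the Fos and Jun site TGACTCA.
mpk-1, rank 1131, intron, chrIII:4223781-4223881, plus strand: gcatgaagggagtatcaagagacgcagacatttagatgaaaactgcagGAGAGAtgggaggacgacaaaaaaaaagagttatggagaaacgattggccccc
egl-26, rank 1134, upstream, chrII:66422-66522, plus strand: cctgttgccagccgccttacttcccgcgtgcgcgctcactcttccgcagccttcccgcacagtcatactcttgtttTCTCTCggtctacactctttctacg
fos-1, rank 1141, intron, chrV:6004800-6004900, plus strand: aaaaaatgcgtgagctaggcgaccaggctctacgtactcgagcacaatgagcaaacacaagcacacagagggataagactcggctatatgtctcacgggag
plx-1, rank 1152, intron, chrIV:962058-962158, plus strand: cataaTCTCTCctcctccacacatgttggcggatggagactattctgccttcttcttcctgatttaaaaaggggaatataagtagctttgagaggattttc
let-60, rank 1167, upstream, chrIV:11692547-11692647, plus strand: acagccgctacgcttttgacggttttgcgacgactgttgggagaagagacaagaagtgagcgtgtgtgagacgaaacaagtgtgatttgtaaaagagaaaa
cam-1, rank 1581, intron, chrII:9305568-9305668, plus strand: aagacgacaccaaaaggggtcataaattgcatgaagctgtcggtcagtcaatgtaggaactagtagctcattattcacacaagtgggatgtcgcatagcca
him-4, rank 1737, intron, chrX:9735182-9735282, plus strand: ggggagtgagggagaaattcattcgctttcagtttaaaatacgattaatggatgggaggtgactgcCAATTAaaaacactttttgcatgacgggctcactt
lin-1, rank 1921, intron, chrIV:2283385-2283485, plus strand: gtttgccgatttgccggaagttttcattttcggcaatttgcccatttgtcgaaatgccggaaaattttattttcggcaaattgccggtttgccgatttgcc
plx-1, rank 4488, intron, chrIV:981232-981332, plus strand: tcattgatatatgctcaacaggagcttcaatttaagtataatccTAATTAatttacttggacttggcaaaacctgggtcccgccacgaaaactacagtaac
GAGAGA was at 3 of them (mpk-1, egl-26 and plx-1 at rank 1152), TAATTG at the him-4 summit and none of the 6 words at fos-1, let-60, cam-1 or lin-1. Of the 14 regions of that kind, the second of mpk-1 and the 5 of smp-1, pop-1 and lin-17 are not printed; of these 6, TGATAA was near 3 summits (smp-1 at rank 1149, pop-1 at 1807 and lin-17 at 1744) and GAGAGA near 2 (smp-1 at 1149 and pop-1 at 1431). The lin-1 sequence holds TTTGCCG on either strand 4 times, and 0.295% of all pooled-list windows hold it as often. That word was chosen after the sequence was seen, and 3.16% of the windows hold it at least once.

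Over all 149 pooled-list regions of the 40 genes, TAATTA was within 50 bp of 5 summits (3.36%, 1.10 to 7.66), against 4.48% of the 20670 nuclear pooled-list summits. Those 5 belonged to egl-20, egl-38, him-4, let-60 and plx-1, and only the egl-20 one ranked under 2000. TAATTG was at 8 summits (5.37%, 2.35 to 10.3, against 7.02%), GAGAGA at 18 (12.1%, 7.32 to 18.4, against 9.34%), TGATAA at 10 (6.71%, 3.27 to 12, against 7.17%) and CACGTG at 1 (0.671%, 0.0170 to 3.68, against 1.79%). TGACTCA was at 0 of 149, against 0.760%; the exact interval reaches 2.45%, and 3 counts of the total, the limit used here for a count of 0, give 2.01%. For each word the interval of the 40 genes included the share over all pooled-list summits. These intervals treat regions as separate, although many share a gene and some overlap, so the comparison is no test. The median GC content of the 101 bases was 38.6% for the 40 genes, against 37.6% for all pooled-list summits and 50.5% for reproducible ones.

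In the Notch pathway, 1 of 8 genes had a pooled-list region ranked 2000 or better, and none had a reproducible one. In replicate 1 alone it was 3 of 8 and in replicate 2 alone 0 of 8. The replicate shares were 14.1% and 14% over all other genes, and 23.1% and 21.5% at lengths similar to the whole gene list. The pooled-list share was 14% over all other genes and averaged 22.3% at window lengths similar to those of the whole gene list. At lengths similar to single Notch genes it ran from 9.94% (dsl-1) to 28.7% (apx-1). The 1 gene in the pooled list was lip-1, a MAP kinase phosphatase which LIN-12 induces, with a region at rank 1764 in its 3′ UTR. It ranked 704 in replicate 1 and was not listed in replicate 2. lag-2, a DSL ligand, had 3 regions, all in both replicates, the strongest at rank 3371 and 1876 bp upstream of its start, and the other 2 overlapped each other in its coding sequence. apx-1, another DSL ligand, had its best region at rank 4326, and the third, dsl-1, had none in any list. The dsl-1 window was the shortest, at 5.86 kb, and 56.3% of other genes of similar length had at least 1 pooled-list region. The receptor gene lin-12 had 2 weak regions, the better at rank 9420 in an intron.

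The lateral signal target genes lst-1, lst-2 and lst-4, which restrain MAP kinase signalling in cells with active LIN-12, had best ranks of 7238, 4820 and 5843. lst-4 had 9 pooled-list regions in 13.9 kb, percentile 97.4 per kb among 745 genes of similar length. Only 2 of them were in both replicates, and these 2 overlapped each other. The lst-4 regions at ranks 5843 and 8566 overlapped as well, so the 9 were not all separate sites. lst-1 ranked 1357 at best in replicate 1 and 3999 in replicate 2, lst-2 6087 and 3450, and lst-4 1846 and 3636. In replicate 1 lst-1 and lst-4 thus had a region within rank 2000, and in replicate 2 none of the 3 had.

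The Wnt pathway held 4 of 8 genes with a pooled-list region ranked 2000 or better. It was 3 of 8 in replicate 1 and 2 of 8 in replicate 2. Other genes had replicate shares of 14.1% and 14%, or 23.1% and 21.5% at lengths similar to the whole gene list. The pooled-list share was the same 14% over all other genes and 22.3% at window lengths similar to those of the whole gene list. At lengths similar to single Wnt genes it ran from 11.1% (mom-2) to 30.8% (cam-1). pop-1, the TCF factor at the end of the pathway, had 9 regions over 13.1 kb, 7 in both replicates, which per kb was percentile 98.3 among 864 genes of similar length. Of the pop-1 regions, those at ranks 3282 and 4701 overlapped. Its 2 strongest lay 3017 and 1429 bp upstream of its start, at ranks 1431 and 1807. The first ranked 5008 in replicate 1 and 1136 in replicate 2, and the second 4623 and 3735. cam-1, a Ror-type receptor, had 10 regions over 19.4 kb, 7 of them in both replicates (percentile 91.2 per kb of 295 genes). Of the cam-1 regions, those at ranks 1581 and 15762 overlapped, as did those at 5907 and 19407. Its strongest, 765 bp upstream of an internal start, ranked 1581, with 1086 in replicate 1 and 12283 in replicate 2. The best cam-1 region of replicate 2, at rank 1140, lay at another intronic site with pooled rank 2389, so the 2 libraries each put a different site first.

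The Frizzled receptor gene lin-17 had 6 regions, the strongest in an intron at rank 1744 (1300 in replicate 1 and 14889 in replicate 2). egl-20, a Wnt ligand, had 1 region, at rank 1381 with TAATTA near its summit (1513 in replicate 1 and 3491 in replicate 2). It lay in the 3′ UTR, 106 bp inside the end of the gene, and nearer to the start of dct-15. The Wnt ligands lin-44 and mom-2, the Ryk receptor lin-18 and the β-catenin bar-1 had their best regions at ranks 5065, 9913, 9963 and 11355. lin-44 and bar-1 had 0 regions in replicate 2.

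Among the 11 fate genes, 4 had a pooled-list region ranked 2000 or better, with 3 in replicate 1 and 2 in replicate 2. Replicate shares of other genes were 14.1% and 14%, or 23.1% and 21.5% at lengths similar to the whole gene list. The pooled-list share was the same 14% over all other genes and 22.3% at window lengths similar to those of the whole gene list. At lengths similar to single fate genes it ran from 9.97% (egl-26) to 33.9% (lin-29). By rank in the pooled list, egl-26 and fos-1 followed egl-17. egl-26, needed for the shape of a vulval toroid cell, had a region 3182 bp upstream at rank 1134 (chromosome II, 66257 to 66686, signal 87.5), 864 in replicate 1 and 4787 in replicate 2. fos-1, the Fos factor required for the anchor cell to invade, had an intronic one 1249 bp downstream of its start at rank 1141 (chromosome V, 6004635 to 6005064, signal 87.4), with 1248 in replicate 1 and 2045 in replicate 2. An antisense RNA gene, anr-32, covers that summit as well. The Sox factor gene egl-13 had one at rank 1777 in its 3′ UTR, 266 bp inside the end of the gene, with 2726 in replicate 1 and 2923 in replicate 2, while its best region of replicate 2, elsewhere, ranked 1740. These 3 regions were listed in both replicates.

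The other fate genes had weaker regions. The zinc finger gene lin-29 had 8 regions over 22.7 kb with a best rank of 3881, 4 of them in both replicates. The metalloprotease gene zmp-1 reached rank 6715, the Pax gene egl-38 7290, the cadherin gene cdh-3 8105, the zinc finger gene vab-23 15969 and the nuclear receptor gene nhr-67, a regulator of the anchor cell, 18036. bed-3, a BED zinc finger gene, had 0 in the pooled list and in replicate 1 and 2 in replicate 2, the better at rank 6744. cdh-3 had 1 region in 18.2 kb, percentile 9.12 per kb among genes of its length. None of these 7 genes had a region ranked 2000 or better in any of the 3 lists.

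Counted over all 40 genes, 35 had at least 1 pooled-list region (87.5%, 73.2 to 95.8), against 67.0% of the other genes and a mean of 82.9% at similar length. In replicate 1, 37 genes had at least 1 and in replicate 2, 35, with 33 in both. The share of other genes was not taken for these replicate counts. The median was 3 regions per gene in the pooled list, against 1 for the other genes, and the highest count was 11. Each gene's regions per kb were set beside those of other genes of similar length. The median percentile was 52.3, 7 genes lay above 90 (lst-4, pop-1, smp-1, cam-1, egl-26, lag-2 and vab-23) and 5 below 10 (let-23, lin-3, lin-25, bed-3 and cdh-3). Percentiles of this kind put roughly 10% of any genes beyond each limit, so some of the 40 would lie there in any case. Overlapping regions were counted separately, as in egl-26 and vab-23. By role the medians were 74.1 for smp-1, plx-1 and him-4, 67.3 for the Wnt genes, 57.4 for the fate genes, 52.8 for the LIN-3 and Ras genes and 42.6 for the Notch genes, none of which was tested. Across the 40 genes the counts of replicates 1 and 2 had a Spearman's rho of 0.70, a description across genes that share both libraries and the control and differ in window length.

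**Figure D3:**
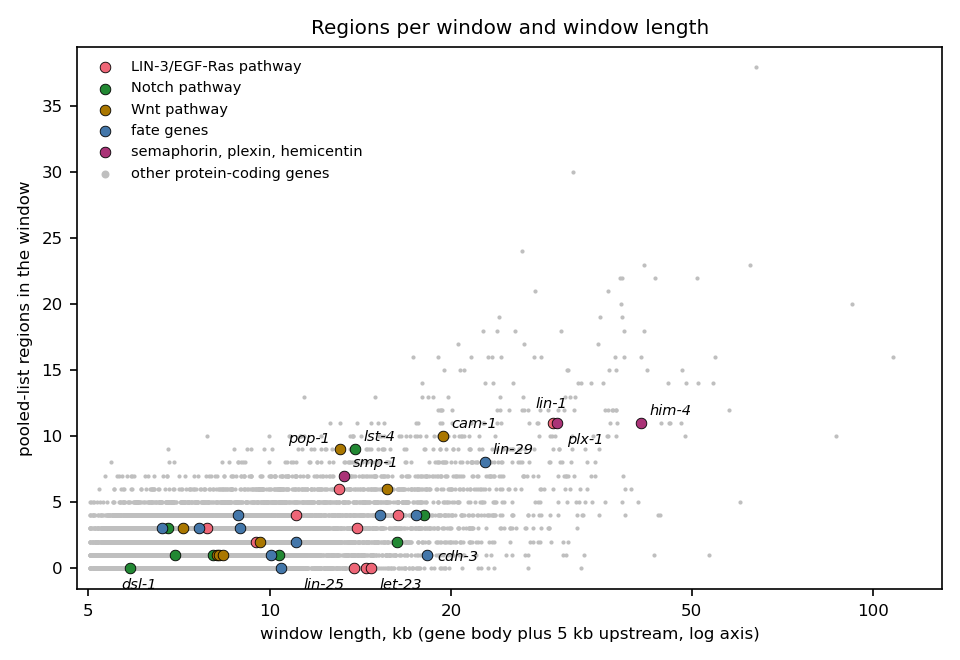
Number of pooled-list regions in each window against window length in kb (log axis), with the 40 genes in colour by pathway and the other protein-coding genes in grey. Longer windows hold more regions in both, and lin-3, let-23, lin-25, bed-3 and dsl-1 lie at 0.

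Of the 149 regions, 69 were listed in both replicates (46.3%, 38.1 to 54.7), against 40.5% of all nuclear pooled-list regions. A further 47 were listed in replicate 1 only, 24 in replicate 2 only and 9 in neither. The share in both fell with rank: 4 of 4 regions ranked to 1000, 16 of 17 ranked 1001 to 2000 (94.1%), 19 of 26 ranked 2001 to 5000 (73.1%), 16 of 41 ranked 5001 to 10000 (39.0%) and 14 of 61 beyond (23.0%). Over all pooled-list regions the same classes had 98.6%, 92.9%, 72.1%, 45.7% and 19%. Each lay within the interval of the 40 genes, which again treats regions as separate although many share a gene and some overlap.

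Introns held 77 of the 149 regions (51.7%), while 48 were upstream (32.2%), 14 in coding exons (9.40%) and 10 in UTR exons (6.71%), all 10 in 3′ UTRs. Windows of other genes of similar length had on average 33.5% in introns and 51.2% upstream. The share of window length in introns was not compared between them. A start site of the gene itself was the nearest protein-coding start for 105 regions (70.5%, against 53.5% in the windows of other genes of any length), and 41 lay within 1000 bp of one (27.5%, against 32.6%).

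**Figure D4:**
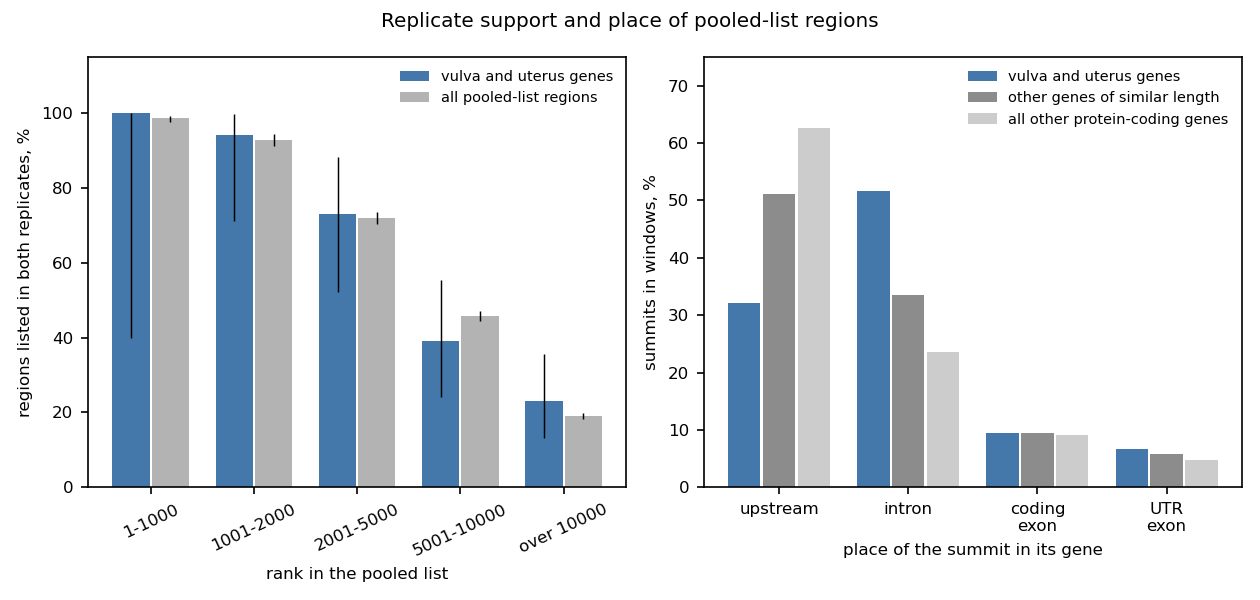
Left, percent of pooled-list regions listed in both replicates by rank class, for the 40 genes and for all nuclear pooled-list regions, with exact 95% intervals as bars. Right, percent of summits by place in their gene, for the 40 genes, other genes of similar window length and all other protein-coding genes. Support falls with rank alike in both, and intronic summits make up 51.7% for the 40 genes.

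The same pathways have further genes, of which 68 were listed. A reproducible region lay in the window of 3 of them (4.41%, 0.919 to 12.4), against 4.69% of the other protein-coding genes, namely mom-1, hmp-2 and sel-8. mom-1, needed to secrete Wnt ligands, had 2: one at a tRNA gene (rank 80, 70 in replicate 1 and 73 in replicate 2) and one in an intron (rank 258, 253 and 240). The region of hmp-2, a β-catenin of cell junctions, ranked 179 and lay 217 bp from the start of K05C4.7. That of sel-8, a nuclear partner of activated Notch, was intronic at rank 307, with 355 in replicate 1 and 201 in replicate 2. Regions ranked 2000 or better in the pooled list lay at 17 of the 68 (25%, 15.3 to 37.0), against 14% of the other protein-coding genes. It was 16 of 68 in replicate 1 and 13 of 68 in replicate 2, against 14.1% and 14%. These shares are over other genes of any window length. No share at similar length was taken for the 68 genes.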

How the data were processed

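LIN-11 occupancy was measured by chromatin immunoprecipitation and sequencing in 1 group of 2 replicates. The authors deposited region lists on assembly ce11 with a signal value and a summit offset per region, per the deposited notes. The reproducible regions derive from the pooled and replicate lists, and those from alignments and 1 control alignment. Aligner, peak caller, thresholds and the scale of the signal stand in none of the sources used here.

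Gene models came from Ensembl release 115 (WBcel235, the same assembly), sequence and tRNA names from RefSeq. Windows, ranks, percentiles (ties counted as 0.5) and motif matches were computed with Python 3.11.15, pandas 2.3.3 and SciPy 1.17.1. A pooled-list region was listed in a replicate when at least 1 bp overlapped. The window counts were tested on simulated data. Shares have exact Clopper-Pearson intervals at 95%. No test between groups was possible and none was made of the list. All 40 genes are accounted for, with full values for those with a reproducible region or one ranked 2000 or better and, by role, those with the strongest and weakest best region; further pathway genes are named where they had a reproducible region. The members, lists and motifs were chosen with earlier results of these data known. Alternatives varied the window, assignment, threshold, overlap, small RNA summits and replicate.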

Additional observations from a re-analysis of the deposited data

How the results depend on the processing

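The count of 3 genes with a reproducible region was 2 or 3 with the gene body only, 2 kb upstream, any overlap, nearest starts only, the higher-signal part of the regions and the 560 strongest regions of each replicate alone (2 to 3 without replicate 1 or 2), and was 1 without small RNA summits. That of 16 genes with a region ranked 2000 or better was 12 to 16 with other windows, any overlap or no small RNA summits. It was 4 at rank 1000 and 19 at rank 4000. With replicate 1 or 2 left out it was between 7 and 17, and it was 7 without replicate 1. For the other windows, any overlap, no small RNA summits and the other rank cuts, no share of other genes was taken. Those counts therefore do not show whether the difference from other genes holds there. Regions listed in both replicates made up 37.6% when 50% of the region had to be covered or the summit had to lie inside (32.6% and 32.5% for all regions), and 43.6% with overlapping regions joined. The median percentile of regions per kb was 72.9 for gene bodies, 56.0 with 2 kb upstream, 55.7 at lengths within 25%, 65.7 against genes of any length, 56.5 with overlapping regions joined (chosen after seeing the data) and 59.3 to 61.4 with 1 replicate left out. The share of summits with TAATTA was 5.37% within 100 bp (9.06% of all pooled-list summits) and 3.40% without small RNA summits. The count of 3 further pathway genes was 2 or 3. Causes were not tested. No paired analysis was possible because there is 1 group. Depth is unknown, so a gene without a region was not shown to lack LIN-11.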
